A study of Mus musculus with 3 samples.

Results

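The 8 genes described here are chemokines that draw lymphocytes into tissue and receptors that read them: the ligands Cxcl9, Cxcl10, Cxcl16, Ccl5 and Xcl1 and the receptors Cxcr3, Cxcr6 and Xcr1. They were chosen by name from the 19091 genes counted in the study, and all 8 had UMIs in each of the 3 libraries. The libraries came from livers of adult C57BL/6 mice with or without a wound made by irreversible electroporation (IRE), in which electric pulses kill hepatocytes in a small area that then regenerates. Single cells were profiled by Drop-seq, which marks each captured mRNA with a cell barcode and a unique molecular identifier (UMI). The control library came from livers after sham surgery, collected after 1 day, the second library from livers 1 day after IRE and the third from livers 7 days after it. There was no sham library of 7 days, so in ratios of 7 days to control, injury and time since surgery cannot be told apart. Both injured groups received pulses of 50 ms at 75 V, as the labels state it, while the study's methods give another voltage. A 4 mm punch was taken from the electroporated area, or from the matching area of control livers, and 3 livers were pooled for each library. Every group was therefore 1 pool in 1 library, no difference between groups has a replicate check, and no test was made. The 95% intervals given below are exact Poisson intervals for levels, exact Clopper-Pearson intervals for shares of barcodes and conditional binomial intervals for ratios, and they cover counting error only.

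Chemokines are small secreted proteins that guide leukocytes along their gradients through receptors coupled to G proteins. CXCL9 and CXCL10 are induced by interferons and share the receptor CXCR3 of activated T cells and natural killer (NK) cells. CXCL16 is made as a membrane-anchored protein and binds CXCR6, which retains T cells and natural killer T cells in the liver sinusoids. CCL5 is a ligand of CCR1 and CCR3 and draws T cells, monocytes and eosinophils. XCL1, made by NK cells and cytotoxic T cells, attracts the cross-presenting conventional type 1 dendritic cell (cDC1) through XCR1.

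The promoters of the 2 interferon-induced ligands are shown because these neighbouring genes differed from the control in opposite directions at 7 days. The start sites of Cxcl9 and Cxcl10 lie 20810 bases apart on the minus strand of mouse chromosome 5, and RefSeq promoter sequences (build GRCm38.p6) were held for 6 of the 8 genes, all but Cxcl16 and Ccl5. The 250 bases before each start are given 5′ to 3′ in lower case, Cxcl9 at chr5:92328080-92328329 and Cxcl10 at chr5:92348890-92349139. Capitals mark matches, on either strand, to the core of the interferon-stimulated response element (GAAANNGAA) and to an NF-kB site (GGNNNTTCC).
Cxcl9: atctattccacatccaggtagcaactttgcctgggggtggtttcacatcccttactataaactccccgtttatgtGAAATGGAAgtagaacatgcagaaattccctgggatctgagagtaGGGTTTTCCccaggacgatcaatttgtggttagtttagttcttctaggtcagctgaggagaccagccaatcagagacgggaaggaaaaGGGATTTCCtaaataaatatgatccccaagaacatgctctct
Cxcl10: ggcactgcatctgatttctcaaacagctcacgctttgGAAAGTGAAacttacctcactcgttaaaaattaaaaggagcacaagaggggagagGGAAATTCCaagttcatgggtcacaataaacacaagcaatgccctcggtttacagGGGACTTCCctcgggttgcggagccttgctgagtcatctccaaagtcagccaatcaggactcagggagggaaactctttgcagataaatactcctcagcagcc

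Both windows held 1 match to the interferon element, which began 175 bases before the start in Cxcl9 and 213 bases before it in Cxcl10. Each also held 2 matches to the NF-kB letters, beginning 130 and 42 bases before the start in Cxcl9 and 158 and 103 bases before it in Cxcl10. No match overlapped another. The windows of Cxcr3, Cxcr6, Xcl1 and Xcr1 held neither motif, and none of the 6 held the letters of a gamma-activated site (TTCNNNGAA). Of 32536 promoter windows of the same length, 7.15% held the interferon element, 7.04% the gamma-activated site and 15.7% the NF-kB letters. These are matches of letters only.

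The analysis used barcodes in which 200 or more genes were detected, 10386 in the control library, 9253 at 1 day and 5624 at 7 days, with 8013800, 6107866 and 3058967 UMIs and medians of 595, 509 and 456.5 UMIs per barcode. The labels name an estimated 1000 cells for each aliquot of cDNA that was tagmented, which is not a count per library. Mitochondrial transcripts took 20.5%, 21.7% and 4.10% of the kept UMIs, and between 99 and 204 kept barcode sequences per library also occurred in another library. Kept barcodes were placed in cell classes by marker genes, none of which is among the 8 genes: a class needed at least 2 distinct markers and more than any other class. Gated in this way, the control, 1 day and 7 day libraries held 1587, 4100 and 53 endothelial barcodes, 554, 90 and 3104 neutrophil barcodes, 1403, 73 and 413 monocyte barcodes, and 1522, 2181 and 111 Kupffer barcodes. Neutrophils made up 5.33%, 0.973% and 55.2% of the kept barcodes in these libraries. The wound macrophage class held 633, 17 and 732 barcodes, and the mesenchymal class 458, 11 and 2. The study, by contrast, describes neutrophils gathering in wounds on the day after injury. Whether the labels of the libraries were in the right order was not tested. Every comparison between libraries takes the labels as given. Although the tissue was liver, hepatocyte transcripts made up at least 10% of the UMIs in only 21, 286 and 1 barcodes. The deposited barcodes under 200 genes are used below as a measure of free RNA. Their medians were 295, 267 and 215 UMIs, so they may also hold shallow cells. Whether they were free of cells was not tested, and levels called free RNA or background below rest on this choice. In the 7 day library 72.6% of the monocyte barcodes also carried at least 2 markers of another class, against 17.7% in the control. The same share at 7 days was 49.8% in neutrophils, 71.7% in endothelial cells, 77.8% in CD8 T cells, 80% in the other T cells, 81.0% in wound macrophages and 86.5% in Kupffer cells, and in the control between 21.4% and 41.2% in these classes.

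Between the control and 1 day none of the 8 genes differed by 2-fold, whereas at 7 days Cxcl10 was higher and most of the others were lower. Levels are given as CPM, the UMIs of a gene divided by all UMIs of the kept barcodes of that library or class and multiplied by 1000000, and a gene was counted as past 2-fold only if it had at least 20 UMIs over both libraries. At 1 day against control 0 of 8 were at least 2-fold higher and 0 were at least 2-fold lower, where 13.6% and 7.14% of all 12988 genes were. At 7 days against control 1 of 8 was higher (Cxcl10), beside 8.79% of 12074 genes, and 4 were lower (Cxcl9, Cxcr6, Xcl1 and Xcr1), beside 26.3%. In the 7 day library against 1 day 1 of 8 was higher (Cxcl10), beside 11.3% of 12116 genes, and 5 were lower (the same 4 and Cxcr3), beside 31.8%. The median log2 ratio over the 8 genes was -0.10, -1.25 and -1.54 in these 3 comparisons, beside 0.05, -0.29 and -0.32 over all genes. The last 2 comparisons share the 7 day library and the first 2 the control library. In whole libraries such as these, fewer cells of a type and less RNA per cell cannot be told apart.

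**Figure D1:**
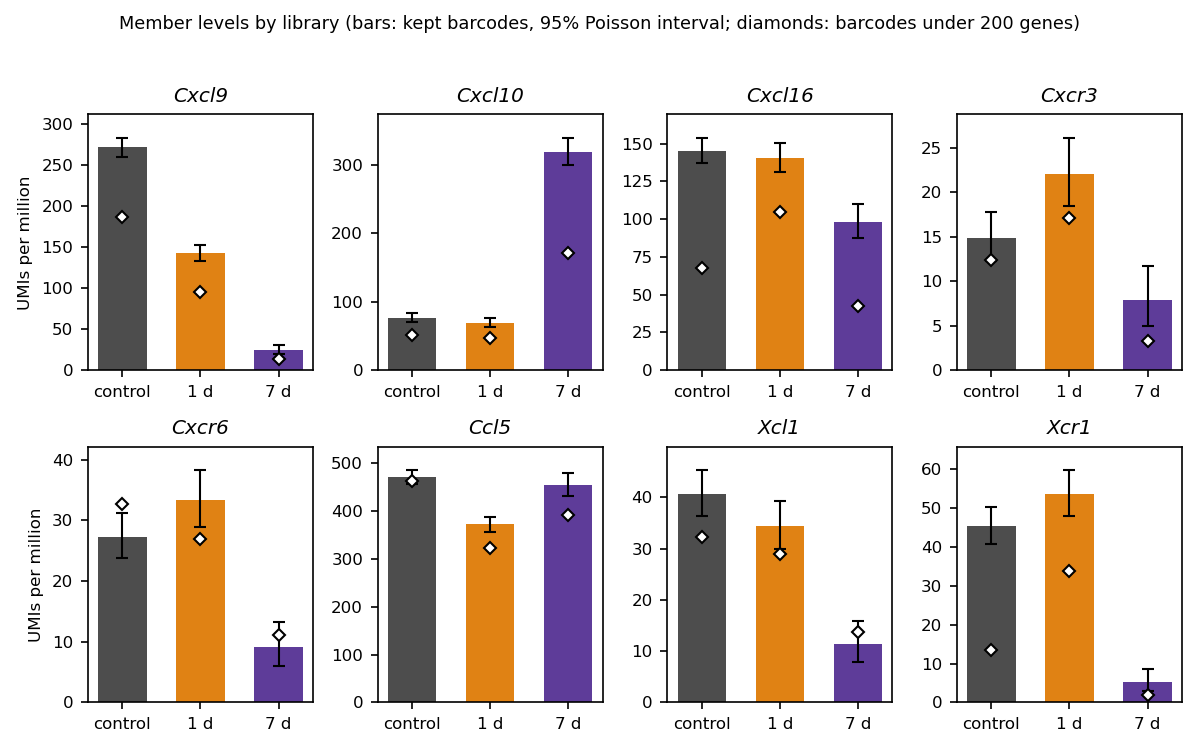
CPM of each of the 8 genes in the control, 1 day and 7 days libraries (vertical axes, each from 0). Bars are kept barcodes with 95% Poisson intervals and open diamonds are barcodes under 200 genes. Cxcl9 stepped down from 272 to 143 and 24.5 while Cxcl10 stood at 76.6, 69.1 and 318.

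Cxcl9, the CXCR3 ligand most tightly tied to interferon gamma, had the largest ratio of the 8 genes between the control and the 7 day library, followed by Xcr1. Its level was 272 CPM in the control (interval 261 to 284), 143 at 1 day (134 to 153) and 24.5 at 7 days (19.3 to 30.7), from 2181, 874 and 75 UMIs. The 3 intervals were separate. It was 1.90-fold lower at 1 day than in the control (1.76 to 2.06) and 11.1-fold lower at 7 days (8.82 to 14.2).

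In the control liver Cxcl9 was foremost an endothelial transcript. Endothelial barcodes held 1128 of its UMIs, 51.7% of the library's total, at 1070 CPM (1009 to 1135), and 36.5% of them carried at least 1 UMI. The next classes in order were mature dendritic cells at 454 CPM from 19 UMIs, cDC1 at 247, monocytes at 241 and neutrophils at 174. The endothelial level was 2.36 times that of mature dendritic cells (1.50 to 3.93), while cDC1 and monocytes could not be ordered (ratio 1.02, 0.746 to 1.38). Free RNA, at 187 CPM, was as high as the neutrophil level (ratio of neutrophils to free RNA 0.934, 0.715 to 1.20). Hepatocyte barcodes, which serve here as a class outside the lymphoid and myeloid lineages, were at 76.1 from 5 UMIs.

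At 1 day the endothelial level of Cxcl9 was 198 CPM (180 to 216), 5.42-fold lower than in the control (4.87 to 6.04), although endothelial barcodes were more numerous. The share of endothelial barcodes with a UMI was 36.5% in the control and 8.83% at 1 day, at medians of 538 and 511 UMIs per barcode. Thinned to 300 UMIs per barcode, the shares were 24.3% of 1553 barcodes and 5.23% of 3957, which left out 34 and 143 shallower barcodes. The remaining 53 endothelial barcodes at 7 days held 4 UMIs of Cxcl9, a level of 126 with an interval from 34.2 to 322.

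Monocyte barcodes differed the other way from the endothelium at 1 day. They went from 241 CPM of Cxcl9 in the control to 440 at 1 day (19 UMIs in 9 of 73 barcodes, ratio 1.83, 1.08 to 2.92). At 7 days they were at 20.7 (5 UMIs in 413 barcodes, 11.7-fold lower than the control, 4.93 to 36.3). That 7 day level had an interval from 6.71 to 48.2, which included the free RNA level of 13.1. Free RNA was itself at 0.0704 times the control, so no 7 day change particular to monocytes is read. Over the 66 barcodes without interferon-induced transcripts, a division described below, the 1 day monocyte level was 215.5 (93.0 to 425). It came from 8 UMIs in 6 barcodes, and its interval included the 241 of the control. A few barcodes thus set the 1 day monocyte level, and these intervals treat UMIs as independent.

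In the control, Kupffer barcodes, the resident macrophages of the sinusoid, were at 143 CPM of Cxcl9, and the wound macrophage class, gated on genes such as Arg1, Ccl2 and Trem2, was at 90.6. Both were below free RNA, with ratios of 0.768 (0.646 to 0.911) and 0.485 (0.367 to 0.632). As whole classes, these levels and that of control neutrophils are read as background. No change is read from them, since free RNA itself was at 187, 95.7 and 13.1 in the 3 libraries. In a division by interferon gamma targets, described below, control neutrophils with them were at 482 (349 to 649) and those without at 89.6. Wound macrophages were at 335 (227 to 475) and 54.4, and Kupffer cells at 152 and 130. Parts of the first 2 classes were thus above free RNA, with a UMI in 13 and 7 barcodes. Kupffer barcodes were at 119 at 1 day and 81.0 at 7 days, the latter from 7 UMIs, which was 1.24 (1.01 to 1.52) and 6.16 (2.20 to 15.2) times free RNA. Neutrophils at 1 day and wound macrophages at 7 days held 2 UMIs each.

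Within the endothelial class Cxcl9 followed sinusoidal identity, in a division of the barcodes that was added after the data had been seen. The 1411 control barcodes with a UMI of Stab2, Clec4g, Oit3, Gpr182 or Dnase1l3, genes of liver sinusoidal endothelium, were at 1157 CPM, and the 176 without one were at 370 (ratio 3.13, 2.31 to 4.35). At 1 day the same division gave 208 and 79.9 (ratio 2.60, 1.59 to 4.59). The intervals of the sinusoidal barcodes, 1089 to 1228 in the control and 190 to 227 at 1 day, were far apart, so that the lower level at 1 day was also seen within them.

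Cxcl10, the other CXCR3 ligand, was the single gene of the list that was higher at 7 days. Its level was 76.6 CPM in the control (70.7 to 82.9), 69.1 at 1 day (62.7 to 76.0) and 318 at 7 days (299 to 339), from 614, 422 and 974 UMIs. The control and 1 day libraries overlapped in their intervals, and the 7 day library stood apart from both. It was 4.16-fold higher at 7 days than in the control (3.75 to 4.60) and 4.61-fold higher than at 1 day (4.11 to 5.18). In barcodes under 200 genes the 7 day to control ratio was 3.36 (2.67 to 4.27).

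The cells that carried most Cxcl10 were other ones at 7 days than in the control. Endothelial barcodes led in the control, at 200 CPM with 34.4% of all Cxcl10 UMIs, ahead of monocytes at 121 and Kupffer cells at 62.1, with mature dendritic cells at 143 from only 6 UMIs. At 7 days monocyte barcodes led with 917 CPM (800 to 1046) from 222 UMIs, 7.61-fold above the control monocytes (6.03 to 9.65). Endothelial barcodes followed at 440 from 14 UMIs in 6 of 53 barcodes, neutrophils at 254, wound macrophages at 152 and Kupffer cells at 139. The leading monocyte level was 2.08 times the endothelial one (1.22 to 3.88), and the ratio of endothelial to neutrophil barcodes was 1.73 with an interval from 0.938 to 2.94.

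All 5 of these classes were above their own control level at 7 days. The ratios were 7.61 in monocytes, 6.17 in neutrophils (3.81 to 10.7) and 4.76 in wound macrophages (2.92 to 8.02). They were 2.24 in Kupffer cells (1.11 to 4.10) and 2.20 in endothelial cells (1.18 to 3.77), beside 3.36 in free RNA (2.67 to 4.27). Control neutrophils and wound macrophages, with 17 and 23 UMIs, were not above the control free RNA of 51.0 CPM. Their ratios thus start from background. Set against free RNA at 7 days, which was at 172 CPM, only monocytes, endothelial cells and neutrophils were higher, by 5.34-fold (4.45 to 6.42), 2.56-fold (1.38 to 4.38) and 1.48-fold (1.26 to 1.74), while wound macrophages and Kupffer cells were not (0.888, 0.666 to 1.17, and 0.810, 0.413 to 1.44). Neutrophil barcodes held 411 of the 974 Cxcl10 UMIs, 42.2%, and 52.9% of all UMIs of that library. Among monocyte barcodes 19.4% carried a UMI at 7 days and 4.42% in the control, at medians of 511 and 559 UMIs, and 15.2% and 2.90% after thinning. With barcodes that carried at least 2 markers of another class left out, the monocyte level at 7 days was 909.

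At 1 day Cxcl10 differed from the control in the endothelium, where it was 2.24-fold lower (89.5 CPM, 1.84 to 2.71). Kupffer barcodes were at 70.4 at 1 day and 62.1 in the control (ratio 1.13, 0.845 to 1.52). The 73 monocyte barcodes at 1 day held 6 UMIs, too few to tell 139 CPM from the 121 of the control.

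**Figure D2:**
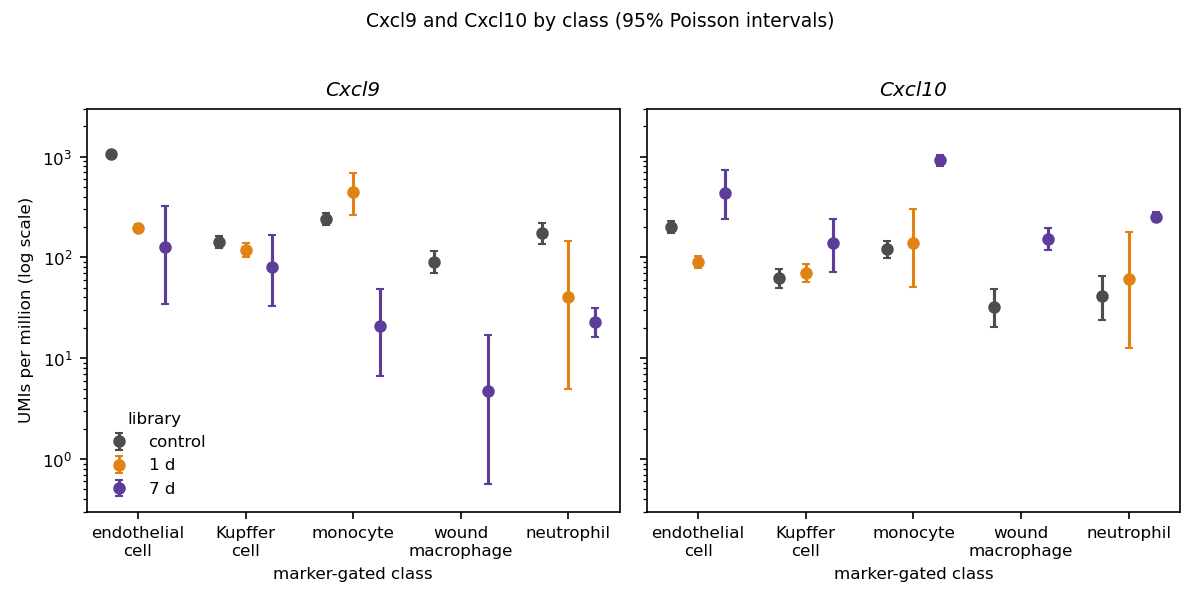
Cxcl9 (left) and Cxcl10 (right) in CPM on a log scale in 5 marker-gated classes of the control, 1 day and 7 days libraries, with 95% Poisson intervals. The wound macrophage class at 1 day had under 20 barcodes and is not drawn. Endothelial Cxcl9 was at 1070 in the control and 198 at 1 day, and monocyte Cxcl10 stood at 917 at 7 days.

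Cxcl10 in the 7 day wound was concentrated in barcodes that also carried interferon-induced transcripts. This division, also added after the data had been seen, took barcodes with at least 2 of Isg15, Ifit1, Ifit2, Ifit3, Rsad2, Oasl1, Usp18 and Mx1. These are genes switched on by interferons, none of them an interferon gene, and which interferon acted was not tested. Among 7 day monocytes the 142 barcodes with such transcripts were at 2261 CPM of Cxcl10 and the 271 without at 106 (ratio 21.3, 12.8 to 38.0), at medians of 551 and 505 UMIs per barcode. Among 7 day neutrophils the 552 barcodes with them were at 932 and the 2552 without at 80.7 (ratio 11.5, 9.22 to 14.6). In the control library the same ratio was 5.85 in monocytes (3.80 to 8.85), 3.09 in endothelial cells (2.20 to 4.28) and 1.10 in Kupffer cells (0.633 to 1.82), and at 1 day it was 4.12 in Kupffer cells (2.66 to 6.27).

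The same division gave other values for Cxcl9, and the difference between both genes was not tested. Its ratio between barcodes with and without interferon-induced transcripts was 1.47 in control endothelial cells (1.23 to 1.76) and 1.17 in those of 1 day (0.818 to 1.62). In the control it was 1.03 in Kupffer cells (0.723 to 1.45), 3.13 in monocytes (2.20 to 4.38) and 2.47 in neutrophils (1.21 to 4.64). At 7 days it was 4.60 in neutrophils (2.29 to 9.36) and 2.48 in monocytes (0.285 to 29.8), the latter from 3 and 2 UMIs. When barcodes were divided by at least 2 targets of interferon gamma instead, such as the guanylate-binding proteins, the Cxcl9 ratio in monocytes of the control was 5.77 (4.30 to 7.80), beside 1.43 in control endothelial cells (1.27 to 1.61) and 1.17 in control Kupffer cells (0.876 to 1.57). The ratio of Cxcl10 in that division was 3.79 in control monocytes (2.55 to 5.68), 8.30 in 7 day monocytes (6.23 to 11.1) and 9.46 in 7 day neutrophils (7.76 to 11.5). In the 7 day library the 75 Cxcl9 UMIs lay in 42 barcodes, 56.0% of them in 10 barcodes, and 26 lay in the 216 neutrophil barcodes with interferon gamma targets, where Cxcl9 was at 178 CPM against 7.48 in the 2888 without (ratio 23.8, 11.4 to 53.4). Those 26 UMIs came from 5 of the 216 barcodes (2.31%), against 11 of the 2888 (0.381%), and the interval of the ratio treats UMIs as independent. Depth was higher in the barcodes with these transcripts in every class named here, and its part in these ratios was not tested.

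**Figure D3:**
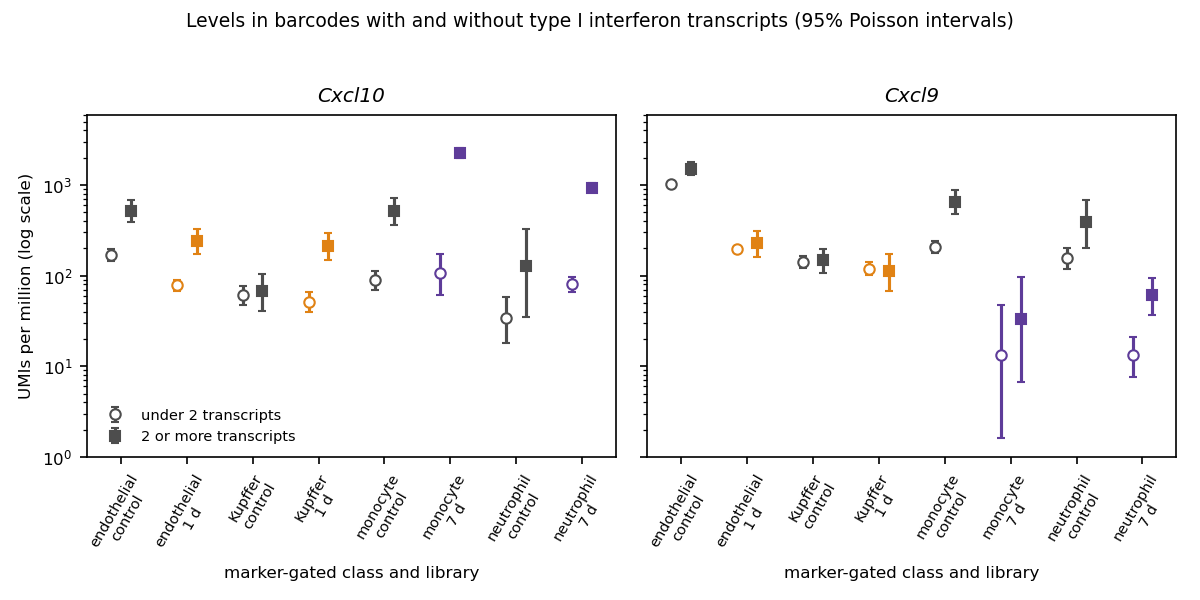
Cxcl10 (left) and Cxcl9 (right) in CPM on a log scale, by marker-gated class and library, with 95% Poisson intervals. Filled squares are barcodes with 2 or more interferon-induced transcripts, named type I interferon transcripts in the figure title, and open circles those under 2. Among the classes drawn, the widest separation is that of Cxcl10 in 7 day monocytes, 2261 against 106.

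Both CXCR3 ligands could be found in the same barcode. In the control library 1090 barcodes had a Cxcl9 UMI, 443 a Cxcl10 UMI and 145 both, so that Cxcl10 was found in 13.3% of the barcodes with Cxcl9 and 3.21% of those without. Among control endothelial barcodes these shares were 14.1% and 6.65%, and at 1 day 8.56% and 3.72%. At 7 days 12 of 42 Cxcl9 barcodes, or 28.6%, carried Cxcl10, against 7.20% of the rest.

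Cxcr3, the receptor of both ligands, was a sparse transcript. Its level was 14.8 CPM in the control (12.3 to 17.8), 22.1 at 1 day (18.5 to 26.2) and 7.85 at 7 days (5.03 to 11.7), from 119, 135 and 24 UMIs. It was 1.49-fold higher at 1 day than in the control (1.15 to 1.92) and 1.89-fold lower at 7 days (1.21 to 3.07). T cells without a CD8 transcript led in the control at 83.0 CPM (54.2 to 122) and at 1 day at 174 (99.6 to 283), where they were 2.10-fold higher (1.05 to 4.06). In the control they could not be ordered against CD8 T cells (ratio 1.04, 0.441 to 2.85).

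CD8 T cells, gated by Cd8a or Cd8b1, were at 79.5, 126 and 90.5 CPM of Cxcr3 in the 3 libraries from 7, 3 and 2 UMIs, and their intervals overlapped. NK barcodes were lower, at 34.6 from 6 UMIs in the control. A level beyond lymphocytes appeared in cDC1, at 54.8 from 12 UMIs in the control and 142 from 10 UMIs at 1 day (ratio 2.58, 1.00 to 6.53), which was 4.43 and 8.29 times the free RNA of those libraries. In the 7 day library 13 of the 24 UMIs lay in neutrophil barcodes at 8.04 CPM, and its ratio to free RNA of 2.44 had an interval that included 1 (0.818 to 8.76). At most 9.64% of the barcodes of any of these lymphocyte classes carried a Cxcr3 UMI, so that absence from a single cell means little at this depth.

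Cxcl16, the membrane-anchored ligand of CXCR6, stayed within 2-fold of the control in both injured libraries. Its level was 145 CPM in the control (137 to 154), 140.5 at 1 day (131 to 150) and 98.4 at 7 days (87.6 to 110). The first 2 libraries overlapped, with a ratio of 0.967 (0.884 to 1.06), and the 7 day level was 1.48-fold below the control (1.30 to 1.68).

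Mature dendritic cells held the highest Cxcl16 level in the control, 764 CPM (523 to 1079) from 32 UMIs in 53 barcodes, 3.05 times that of Kupffer cells (2.06 to 4.38). Kupffer barcodes were at 251, 189 and 289 in the control, 1 day and 7 day libraries and endothelial barcodes at 193, 156 and 251, beside 67.9, 92.7 and 74.4 in monocytes, whose 1 day interval (25.3 to 237) reached both. Kupffer cells were 1.33-fold lower at 1 day than in the control (1.13 to 1.56), and their 7 day level did not separate from the control (ratio 1.15, 0.738 to 1.73). Wound macrophages were 2.21-fold lower at 7 days than in the control (171 and 77.4, 1.50 to 3.36). The 3104 neutrophil barcodes of the 7 day library held 132 of its 301 Cxcl16 UMIs at 81.6 CPM, beside 89.6 in the neutrophils of the control.

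Cxcr6, the receptor that keeps T cells in the liver, was lower at 7 days in the library as a whole, while no lower level was detectable in the T cells that were left. Whole-library levels were 27.3 CPM in the control (23.8 to 31.2), 33.4 at 1 day (29.0 to 38.3) and 9.15 at 7 days (6.08 to 13.2), and the last was 2.99-fold below the control (2.01 to 4.60). T cells without a CD8 transcript were at 265 (211 to 328), 229 (142 to 350) and 262 (54.1 to 767) from 83, 21 and 3 UMIs. These values did not separate, while the number of such barcodes was 407, 166 and 25.

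CD8 T cells carried Cxcr6 at 114 CPM in the control (54.5 to 209), 84.2 at 1 day (10.2 to 304) and 452 at 7 days (217 to 832), from 10, 2 and 10 UMIs. The 7 day level was 3.98 times that of the control (1.49 to 10.7), and 8 of 45 barcodes had a UMI against 8 of 106. Of these 45 barcodes 35 carried at least 2 markers of another class, and the remaining 10 held 1 UMI of Cxcr6. The part of such mixed barcodes in the 7 day values of both T cell classes was not tested. In the control the T cells without CD8 transcripts were 2.33 times above the CD8 T cells (1.21 to 5.04), and at 7 days the order was the other way round with an interval that included 1 (1.72, 0.444 to 9.74). NK barcodes were at 23.1 in the control, below the free RNA level of 32.7. Of the 188 control barcodes with Cxcr6, 9 also had Cxcr3.

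Ccl5, a chemokine that cytotoxic lymphocytes store and release, was the most abundant of the 8 transcripts. It stood at 471 CPM in the control (456 to 486), 372 at 1 day (357 to 388) and 455 at 7 days (431 to 479). The control and 7 day libraries overlapped (ratio 0.966, 0.908 to 1.03), and the 1 day library was 1.27-fold below the control (1.20 to 1.33).

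Within the gated lymphocytes the level of Ccl5 was higher after injury than in the control. NK barcodes led in the control at 5133 CPM (4802 to 5482) and at 1 day at 6571 (5470 to 7829), a ratio of 1.28 (1.05 to 1.55). CD8 T cells were at 2102 (1810 to 2428) in the control, 3704 (2971 to 4564) at 1 day and 9769 (8510 to 11163) at 7 days, and these 3 intervals were separate. T cells without CD8 transcripts were at 1405 (1276 to 1542), 1874 (1604 to 2175) and 7524 (6018 to 9292), again apart.

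Against the control, the 7 day level of Ccl5 was 4.65-fold higher in CD8 T cells (3.80 to 5.69) and 5.36-fold higher in the other T cells (4.20 to 6.76). At least 2 markers of another class were carried by 77.8% and 80% of these 7 day barcodes, against 29.2% and 21.4% in the control. The 10 CD8 T barcodes of 7 days without them were at 10003 CPM (6886 to 14048), and in the other T cells the part of mixed barcodes was not tested. The shares of CD8 T barcodes with a Ccl5 UMI were 47.2%, 36.1% and 75.6% in the 3 libraries, at medians of 591, 550 and 481 UMIs, and after thinning 34.9% in the control and 70.0% at 7 days. Hepatocyte barcodes at 1 day, a class that should lack the gene, had a Ccl5 UMI in 24.5% at a median of 1273.5 UMIs and in 5.28% after thinning. All 14 NK barcodes of the 7 day library carried Ccl5, with 92 UMIs together. These lymphocyte classes at 7 days were small, 45, 25 and 14 barcodes, so that a few cells set their levels. Over barcodes with at least 400 genes the level of Ccl5 was 2956 CPM in NK cells of the control, 4178 in those of 1 day and 6111 in CD8 T cells of 7 days. T cells of the control were not recalculated in this way. The other T cells had medians of 630 UMIs in the control and 390 at 7 days. The part of depth in the 7 day ratios of T cells was not tested.

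Ccl5 was also found where no lymphocyte was gated. Mature dendritic cells of the control were at 4276 CPM (3672 to 4950), second to NK cells, from 179 UMIs in 27 of 53 barcodes. Neutrophil barcodes held 568 of the 1391 Ccl5 UMIs of the 7 day library, 40.8%. Their level as a class, 351, was not above the free RNA level of 391 (ratio 0.898, 0.799 to 1.01), and is read as background. In the division by interferon-induced transcripts, the 552 of these barcodes with them were at 504 (430 to 587), above that level. The 2552 without were at 312 (282 to 344). Endothelial barcodes were at 131 in the control and 296 at 1 day, a ratio of 2.26 (1.88 to 2.73), and in both libraries were at or below free RNA, with ratios of 0.283 (0.235 to 0.339) and 0.915 (0.826 to 1.01).

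**Figure D4:**
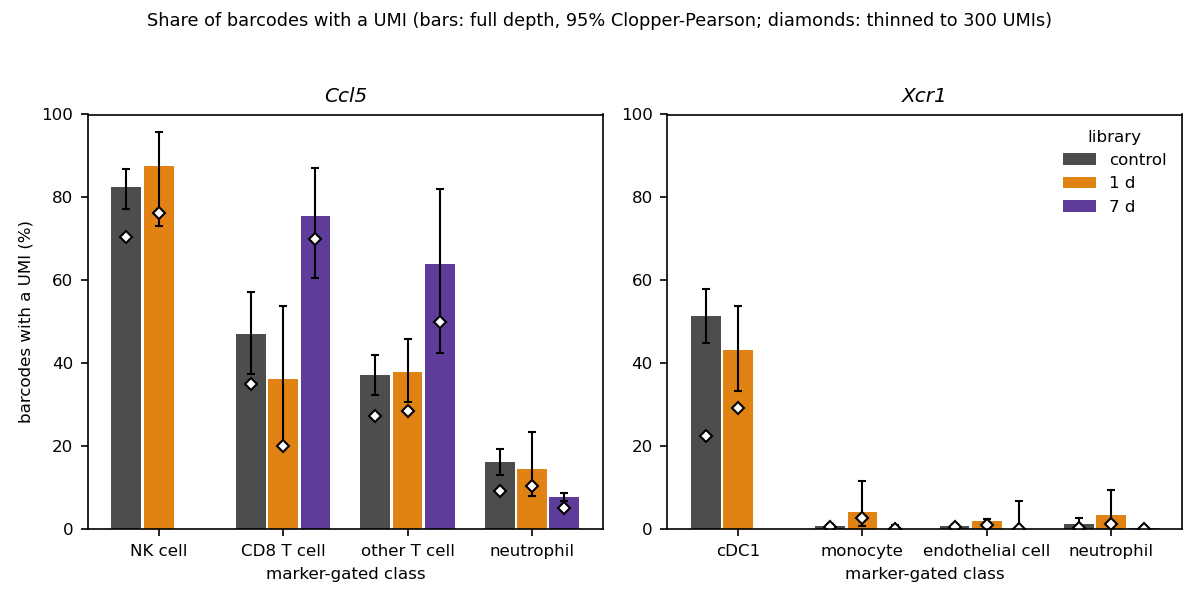
Share of barcodes with at least 1 UMI of Ccl5 (left) and Xcr1 (right), in percent, by marker-gated class and library. Bars are at full depth with 95% Clopper-Pearson intervals, open diamonds after thinning to 300 UMIs, and classes under 20 barcodes are not drawn. Ccl5 was found in 75.6% of CD8 T barcodes at 7 days, and Xcr1 in 51.5% of control cDC1 barcodes.

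Xcl1 and its receptor Xcr1, the axis between cytotoxic lymphocytes and cDC1, stayed within 2-fold of the control at 1 day and were lower at 7 days. Xcl1 was at 40.7 CPM in the control (36.4 to 45.3), 34.4 at 1 day (29.9 to 39.4) and 11.4 at 7 days (7.97 to 15.9), from 326, 210 and 35 UMIs. The first 2 did not separate (ratio 0.845, 0.707 to 1.01), and the 7 day level was 3.56-fold below the control (2.50 to 5.19). Over barcodes with at least 400 genes its 7 day to control ratio was 0.164, against 0.281 here. NK cells led with 381 (294 to 484) in the control and 473 (216 to 898) at 1 day, and T cells without CD8 transcripts followed with 195 and 218. The gap between these classes was 1.95-fold in the control (1.36 to 2.82).

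Xcl1 travelled with Ccl5 in the same barcodes. Of the 206 control barcodes with Xcl1, 150 also had Ccl5, and Xcl1 was found in 9.68% of barcodes with Ccl5 against 0.634% of those without. Among NK barcodes, of which 82.4% carried Ccl5, the same shares were 16.1% and 13.3%. At 7 days 17 of the 35 Xcl1 UMIs lay in neutrophil barcodes at 10.5 CPM, beside 13.8 in free RNA.

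Xcr1 marks cDC1 and was at 45.4 CPM in the control (40.9 to 50.3), 53.7 at 1 day (48.0 to 59.8) and 5.23 at 7 days (2.99 to 8.49), from 364, 328 and 16 UMIs. It was 8.68-fold lower at 7 days than in the control (5.28 to 15.4). In cDC1, gated without Xcr1 on genes such as Clec9a and Wdfy4, it stood at 955 (830 to 1094) in the control and 1219 (975 to 1506) at 1 day, a ratio of 1.28 (0.981 to 1.65). The next class in the control, mature dendritic cells, was 13.3-fold lower (4.50 to 65.2).

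The number of cDC1 barcodes was 237 in the control, 97 at 1 day and 1 at 7 days, or 2.28%, 1.05% and 0.0178% of the kept barcodes. Xcr1 was found in 51.5% of control cDC1 barcodes and 43.3% of those at 1 day, against 0.630% and 2.00% of endothelial barcodes, at medians of 789, 643, 538 and 511 UMIs. After thinning the cDC1 shares were 22.5% in the control and 29.2% at 1 day, so that no order is read from them. At 1 day only 26.2% of the Xcr1 UMIs lay in cDC1, compared with 57.4% in the control, and endothelial barcodes held 33.2% at 43.9 CPM, 1.30 times the free RNA level (0.968 to 1.75). Free RNA itself held 2.53 times more Xcr1 at 1 day than in the control (1.62 to 4.06). In the 7 day library 10 of the 16 UMIs lay in barcodes that fitted no class and 6 in neutrophils.

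**Figure D5:**
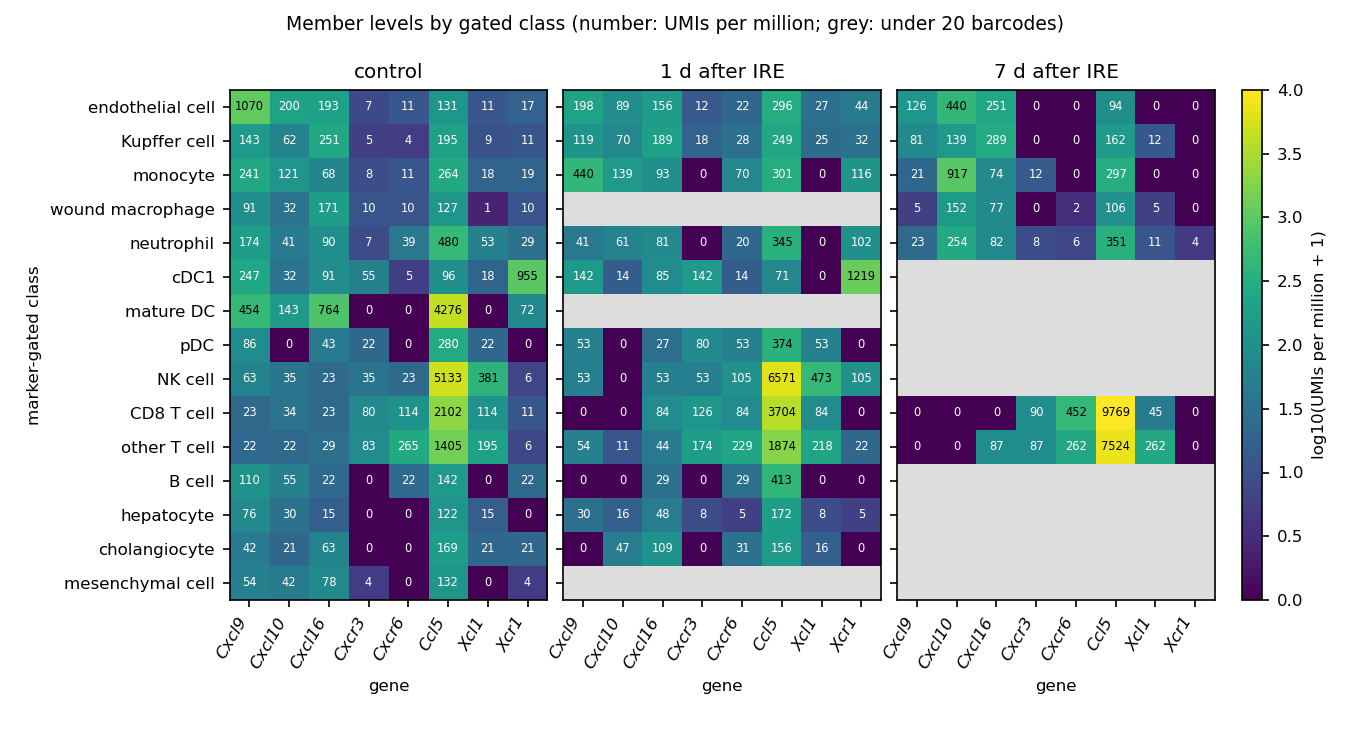
Levels of the 8 genes (columns) in marker-gated classes (rows) of the control, 1 day and 7 days libraries. The number in each tile is CPM, the colour is log10 of that number plus 1, and grey tiles had under 20 barcodes. The brightest tiles are those of Ccl5 in NK cells, T cells and control mature dendritic cells. Cxcl9 was at 1070 in control endothelium, Xcr1 at 955 and 1219 in cDC1 and Cxcl10 at 917 in 7 day monocytes.

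Genes on either side of these chemokines were read from 5 lists. Of 11 other lymphocyte chemokines, 5 had enough UMIs at 7 days against control. Among these 0 were at least 2-fold higher, beside 8.79% of all genes, and 1 was lower, beside 26.3%. The lower one was Cxcl12, the ligand of CXCR4, at 26.7 and 4.90 CPM. The median log2 ratio of the 5 was 0.30, beside -0.29 over all genes. Ccl21a, a lymphatic ligand of CCR7, was the member past 2-fold at 1 day, at 4.37 in the control and 11.1. Against 1 day, Ccl17 was higher at 7 days, at 8.35 and 17.3.

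Of 13 other receptors 10 were measured at 7 days against control, with 2 lower, beside 26.3% of all genes. Their median log2 ratio was -0.11, beside -0.29 over all genes. Among those at least 2-fold higher, as 8.79% of all genes were, stood Ccr1, at 41.9 and 640 CPM, and Ccr3, at 1.62 and 4.90. At 7 days Ccr1 was at 761 CPM in neutrophils and 673 in wound macrophages, against 182 in control neutrophils. The 2 lower ones were Ccr6, at 3.12 and 0.981, and Ccr9, at 12.4 and 3.60, which are found on B cells, some T cells and plasmacytoid dendritic cells. At 1 day against control 0 were higher and 3 were lower, beside 13.6% and 7.14% of all genes. The 3 were Ccr1 (11.1), Cxcr4 (23.3 and 4.26) and Cx3cr1 (34.1 and 13.3).

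Of the 12 genes of interferon gamma and its signal chain, 11 were measured. At 7 days against control 1 was higher and 1 lower, beside 8.79% and 26.3% of all genes. Their median log2 ratio was -0.11, beside -0.29 over all genes. Socs1, the feedback inhibitor, was at 11.4 and 31.1 CPM, and Il12b, a subunit of the cytokine that drives interferon gamma release, at 20.2 and 3.92. Ifng itself was measured with 104, 34 and 32 UMIs, at 5.57 CPM at 1 day and 10.5 at 7 days, and was the member past 2-fold at 1 day, 2.33-fold lower than in the control. NK cells of the control carried it at 127 and T cells without CD8 transcripts at 70.2. Its level in CD8 T cells at 7 days was 226 from 5 UMIs.

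Of 12 interferon gamma targets 11 were measured, with a median log2 ratio of -0.71 at 1 day and -0.69 at 7 days against control, beside 0.05 and -0.29 over all genes. At 1 day 0 were at least 2-fold higher and 3 were lower, beside 13.6% and 7.14% of all genes. The 3 were Gbp2, Gbp5 and Cd274. At 7 days 1 was higher and 5 were lower, beside 8.79% and 26.3% of all genes. The higher one was Cd274, which encodes the checkpoint ligand PD-L1, at 33.2 and 100.0 CPM. The 5 lower ones were Serpina3g (169 and 22.2), Iigp1 (277 and 59.5), Ciita (33.9 and 9.15), the regulator of class II antigen presentation, Gbp4 (105 and 30.7) and Gbp3 (171 and 81.4). Gbp2 was at 186, 68.4 and 162, so that the targets did not move together.

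The 4 proteases that shed or trim these chemokines were all measured. Their median log2 ratio was 0.41 at 7 days against control, beside -0.29 over all genes. Mmp9, a neutrophil granule enzyme, was at 25.6 and 348 CPM, and Dpp4, which clips CXCL9 and CXCL10, was at 62.5 in the control, 192 at 1 day and 18.6 at 7 days. Adam10, which sheds CXCL16, was at 112 and 184, and Adam17 at 63.9 and 68.7, neither past 2-fold.

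The genes whose pattern over classes was most like each member were sought among 9923 genes over 19 class-by-library profiles of at least 100 barcodes, by Pearson's r of log2(CPM + 10), as a description. These profiles share libraries, and so depth and free RNA. Ccl5 was most like Cd7, Cst7 and Klrd1 (r = 0.96, 0.95 and 0.95), Xcl1 like Cd160, Il2rb and Klrc1 (0.95 each), and Cxcr6 like Cd5, Lef1 and Xlr4b (0.96, 0.95 and 0.94), most of which are transcripts of T or NK cells. Genes like Cxcr3 were Cd226 and Trgv2 (0.91 and 0.90). Cxcl16 was most like Vapb, Itm2b and Rcan1 (0.91, 0.90 and 0.90), Xcr1 like Lpcat1, Btla and Rab43 (0.88, 0.87 and 0.85), Cxcl9 like Sgpp1, Ccnd1 and Serinc3 (0.85, 0.83 and 0.82) and Cxcl10 like Sbno2, Nsf and Slfn5 (0.85 each). Cxcl9 and Cxcl10 thus had the loosest matches of the 8.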

How the data were processed

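Drop-seq libraries of liver cells from 3 groups were analysed. Per the file headers, the authors deposited raw counts of UMIs, a matrix per library, made by the DigitalExpression program of the Drop-seq tools from sense-strand reads. The submitters' processing notes name STAR 2.5.2a and hg19, a human build, although the gene symbols are those of mouse, so that no coordinates were taken from them. Although a 200-gene minimum stands in the headers, the matrices also held barcodes of as few as 11 genes. Here barcodes with at least 200 genes were kept, UMIs were summed per library or gated class and divided by the summed UMIs (CPM), with Python 3.11.15, numpy 2.4.6 and scipy 1.17.1. Classes under 20 barcodes were given no level. No doublet caller was run; barcodes with at least 2 markers of another class were left out as an alternative. Scripts were checked on simulated counts. Groups came from the labels. The 8 genes, the marker lists and the pathway lists were chosen with earlier results of these data known. The text names all 8 genes, every pathway gene past 2-fold with others for context, and the 3 genes most like each member, apart from a few items that are not reported here.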

Additional observations from a re-analysis of the deposited data

Results flagged for a closer look

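Several differences from the control pointed one way at 1 day and the other way at 7 days, each with an interval that excluded 1 at both times. These are ratios of 1 library to the same control library, and the difference between the times was not tested. Their intervals treat UMIs as independent. Cxcl9 in monocyte barcodes was at 1.83 times the control at 1 day and 0.0857 times at 7 days. The first value came from 19 UMIs in 9 barcodes, and the 7 day level did not separate from free RNA. Cxcl10 in endothelial barcodes was at 0.447 times the control at 1 day and 2.20 times at 7 days. The 7 day value came from 14 UMIs in 6 of 53 barcodes, and 71.7% of those 53 carried at least 2 markers of another class. Over all kept barcodes the 2 ratios were 1.49 and 0.528 for Cxcr3, 1.22 and 0.335 for Cxcr6 and 1.18 and 0.115 for Xcr1. Xcr1 in monocyte barcodes was at 6.22 times the control at 1 day, from 5 UMIs in 73 barcodes, and at 0 in the 413 barcodes of 7 days, where its upper limit was 15.2 CPM.

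Barcodes under 200 genes, which enter the text elsewhere only as a measure of free RNA, also differed from those of the control library. In them Cxcl10 was at 3.36 times the control at 7 days, Cxcl16 at 1.54 times at 1 day and Xcr1 at 2.53 times at 1 day. In the kept barcodes the same ratios were 4.16, 0.967 and 1.18. Other genes were lower in barcodes under 200 genes, among them Cxcl9 at 0.512 times the control at 1 day and 0.0704 times at 7 days and Xcr1 at 0.147 times at 7 days.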

How the results depend on the processing

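The counts of the 8 genes past 2-fold stayed within 1.5 times of the reported ones in all 42 recalculations with another filter, scaling or denominator and in the 6 chosen after seeing the data. Of the ratios of single genes, 132 moved by less than their interval, 33 moved by more in the same direction and 3 reversed. Of the levels in the leading classes, 123 moved by less than their interval and 21 by more, and of those recalculated in ways chosen after seeing the data 13 and 17. The ratio of Ccl5 at 7 days against 1 day was 1.22 as reported, 0.998 with mitochondrial UMIs out of the denominator and 0.952 with hepatocyte, haemoglobin and mitochondrial UMIs out of it. The ratio of Cxcr6 at 1 day against control was 1.22 as reported and 0.980 with barcodes over 20% mitochondrial left out. The median log2 ratio of all genes at 7 days against control was -0.29 as reported, -0.55 with mitochondrial UMIs out and -0.36 with median-of-ratios scaling. No paired analysis was possible because each group was 1 library. Lymphocyte and dendritic classes under 50 barcodes and transcripts under about 20 UMIs per class limit what the 1 day and 7 day libraries can show.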
